A study of Mus musculus with 6 samples.

Results

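The erythroid transcription factor complex is described here through 10 genes: Gata1, Zfpm1, Tal1, Lyl1, Lmo2, Ldb1, Klf1, Nfe2, Gfi1b and Bcl11a. The members were chosen by symbol, as every non-control probe whose gene name in the array files is one of these, and all 10 of them, among 34797 gene and transcript names on the array, had at least 1 probe, with 13 of 55681 distinct probes. These genes, and the gene lists read beside them below, were chosen with earlier results of these data known. The RNA came from mouse spleen and was hybridised to 6 one-colour Agilent arrays. All mice were of strain B10.BALB-16.C2A, called congenic in the series title. Irradiated mice received 900 cGy of total body irradiation from an X-ray irradiator and were sampled 24 h later (3 arrays, replicates 1 to 3), and unirradiated mice, labelled 0 cGy, were resting controls (3 arrays, replicates 1 to 3). Each array carried RNA pooled from 3 mice, so p-values measure the spread between pools and not between mice. Age is not given in the sources used here.

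In red cell precursors the zinc finger protein GATA1 binds GATA sites and works with FOG1, the protein encoded by Zfpm1. TAL1, or its relative LYL1, binds E-box sites with an E protein, and the bridging proteins LMO2 and LDB1 join it to GATA1 and can loop distant enhancers to promoters. KLF1 binds CACCC sites and NFE2 binds the sites of the globin locus control region, while GFI1B represses genes of other fates and BCL11A silences embryonic globin genes. The red pulp of the adult mouse spleen, unlike that of adult humans, normally keeps making red cells.

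Promoter sequence was examined first, because GATA1 is known to act on the genes of its own partners. The part of GATA1 in the members' changes was not tested. A RefSeq table (GRCm38.p6) held 11 promoters for 8 of the 10 members, each of 300 bases, 250 before and 50 after the start of the transcript; Lmo2 and Nfe2 were not among them. A GATA hexamer (AGATAA or AGATAG or TGATAA or TGATAG, on either strand) was present in 4 of the 11 promoters, against 29.8% of 32851 promoters of the same length. The 4 promoters with a match belonged to Klf1, Gfi1b, Tal1 and Ldb1 and are printed with the hexamer in capitals, 5′ to 3′ on the strand of the gene.
Klf1, chr8:84901732-84902031, plus strand: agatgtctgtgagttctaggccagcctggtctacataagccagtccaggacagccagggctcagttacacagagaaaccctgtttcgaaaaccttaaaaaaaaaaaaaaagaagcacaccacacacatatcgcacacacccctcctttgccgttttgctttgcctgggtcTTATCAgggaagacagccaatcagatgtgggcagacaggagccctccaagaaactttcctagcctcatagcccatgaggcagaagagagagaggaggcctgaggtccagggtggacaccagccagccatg
Gfi1b, chr2:28621933-28622232, minus strand: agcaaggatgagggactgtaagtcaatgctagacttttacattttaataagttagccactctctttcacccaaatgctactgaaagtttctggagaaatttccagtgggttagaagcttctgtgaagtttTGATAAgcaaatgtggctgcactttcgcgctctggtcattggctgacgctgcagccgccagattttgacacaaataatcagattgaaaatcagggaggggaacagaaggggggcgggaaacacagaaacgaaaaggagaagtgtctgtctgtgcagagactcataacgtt
Tal1, chr4:115056176-115056475, plus strand: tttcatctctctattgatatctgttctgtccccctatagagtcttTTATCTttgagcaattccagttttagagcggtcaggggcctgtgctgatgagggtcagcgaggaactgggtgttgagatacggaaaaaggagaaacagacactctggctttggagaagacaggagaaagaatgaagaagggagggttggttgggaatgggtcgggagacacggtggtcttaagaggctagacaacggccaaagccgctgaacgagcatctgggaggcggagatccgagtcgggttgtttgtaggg
Ldb1, chr19:46037021-46037320, minus strand: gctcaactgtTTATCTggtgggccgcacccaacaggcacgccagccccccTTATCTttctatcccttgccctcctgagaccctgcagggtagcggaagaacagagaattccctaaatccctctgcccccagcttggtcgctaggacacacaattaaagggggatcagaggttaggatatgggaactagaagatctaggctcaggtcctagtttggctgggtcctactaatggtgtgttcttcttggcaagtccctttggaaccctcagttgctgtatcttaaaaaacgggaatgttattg
Counted from the first base of the transcript as position 0, the Klf1 match lay at -80 to -75 and the Gfi1b match at -120 to -115. The Tal1 match was at -205 to -200, and Ldb1 held matches at -240 to -235 and at -200 to -195. The E-box CAGATG, found in 17.2% of all promoters, stood in the Klf1 promoter at -59 to -54 and in the Tal1 promoter at 10 to 15.
The motif CCNCNCCC, a loose form of the CACCC site with any base at N, was found in 9 of the 11 promoters, against 49.5% of all promoters. Overlapping matches were counted separately. It also fits sequences without CACCC, among them a run of G in the Lyl1 promoter. The 11 promoters were 44.3% to 73.7% G and C, and the part of this in the matches was not tested. Gata1 is printed for that motif, with 3 matches in capitals and no GATA hexamer. Its match CCCCACCC holds CACCC, while CCCCTCCC and CCACTCCC do not.
Gata1, chrX:7967861-7968160, minus strand: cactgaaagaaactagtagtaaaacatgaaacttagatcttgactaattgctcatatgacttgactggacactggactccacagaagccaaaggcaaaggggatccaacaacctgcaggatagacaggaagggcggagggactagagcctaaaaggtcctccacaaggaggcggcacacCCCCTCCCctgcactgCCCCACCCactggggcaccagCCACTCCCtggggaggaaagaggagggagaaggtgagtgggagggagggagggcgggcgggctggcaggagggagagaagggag
Bcl11a had 8 CCNCNCCC matches, some overlapping, and no GATA hexamer. The printed Klf1 promoter had no CCNCNCCC match, though it holds the letters CACCC, since the motif also asks for certain bases around them. The hexamer TGACCA, in 13.6% of all promoters, was found on the minus strand of Gfi1b at -88 to -83, and the NF-E2 motif, in 0.155% of all promoters, was in none of the 11. These matches describe letters in a window, not binding.

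All 10 members were lower 24 h after 900 cGy. Values are log2 signals relative to the array's 75th percentile, and groups were compared with limma, with p-values adjusted by the Benjamini-Hochberg method over the 39683 probes that 1 or both groups had well above background on every array. Of the 13 probes of the members, 12 were tested and 12 were lower, against 31% of all probes tested. None was higher, against 26.4% of all probes. At least 2-fold lower were 9 of the 10 members, against 9.45% of all probes. The 3 irradiated arrays lay below the 3 unirradiated arrays for all 10 members, a pattern shown by 35.9% of all probes. The median change over the members was -1.92, against -0.07 over all probes. In whole spleen RNA, fewer cells of a type and less RNA per cell cannot be told apart.

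**Figure D1:**
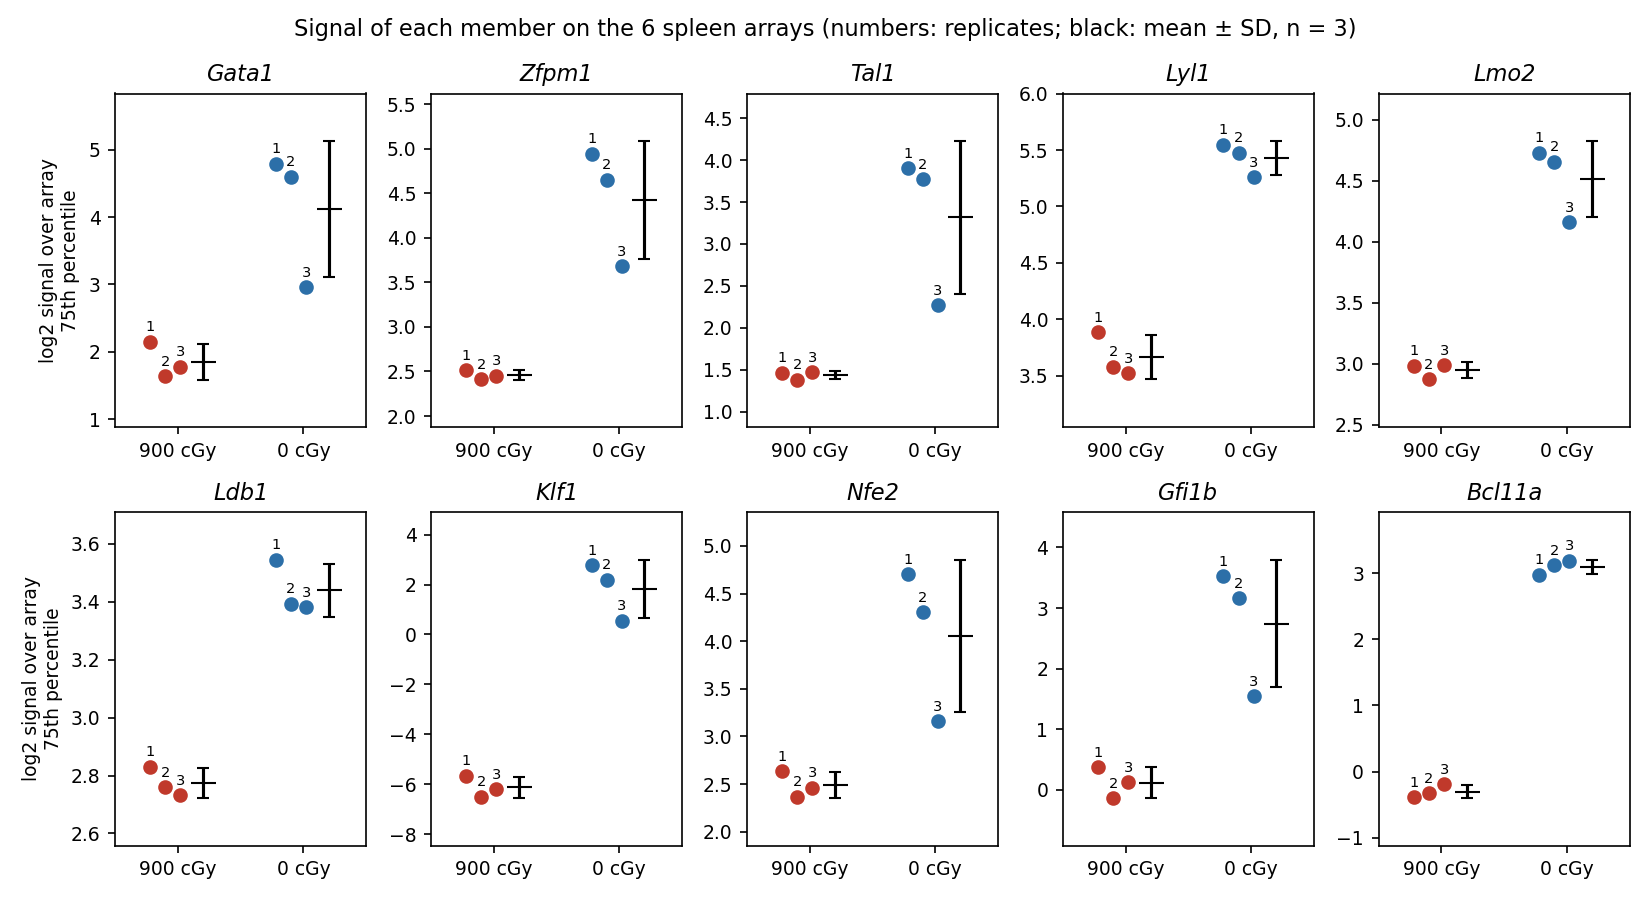
Log2 signal over the array's 75th percentile (y axis, its own range per panel) of each member on each array (numbered points: replicates; black: mean ± SD, n = 3), with the 900 cGy arrays left of the 0 cGy arrays. For each of the 10 members the irradiated arrays lie below the unirradiated arrays, and unirradiated replicate 3 is the lowest unirradiated array for all of them except Bcl11a.

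The DNA-binding core is Gata1 with its cofactor Zfpm1. For Gata1 (probe on the minus strand, mm9 chrX:7536392-7536451), the log2 signal was 2.15, 1.64 and 1.78 in irradiated spleens, against 4.79, 4.60 and 2.96 in unirradiated spleens. The irradiated arrays lay close together and below all unirradiated arrays, of which replicate 3 was well below the others. The mean was 1.85 ± 0.27 in irradiated and 4.12 ± 1.01 in unirradiated spleens (SD, n = 3 each), a change of -2.26 ± 0.48 (SE; 95% interval -3.42 to -1.11; limma adjusted p = 0.00707), or 4.80-fold lower. Zfpm1 encodes FOG1, which binds GATA1 and recruits the NuRD remodelling complex. Its first probe (chr8:124861087-124861146, plus strand) had 2.52, 2.42 and 2.45 in irradiated spleens and 4.94, 4.65 and 3.68 in unirradiated spleens. The groups were apart, and the 3 irradiated arrays were near one another. The change was -1.96 ± 0.31 (SE; limma adjusted p = 0.00201; 3.90-fold lower). The second probe of Zfpm1, which overlaps the first over most of its length, gave -1.99 ± 0.30 (limma adjusted p = 0.00178).

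The E-box part of the complex is Tal1 or Lyl1, bridged to GATA1 by Lmo2 and Ldb1. Tal1 (chr4:114744219-114744278, plus strand), a basic helix-loop-helix factor needed for all blood formation, had 1.46, 1.38 and 1.47 in irradiated spleens and 3.91, 3.78 and 2.27 in unirradiated spleens. The change of -1.88 ± 0.42 (SE; limma adjusted p = 0.00876) was 3.68-fold lower, and the groups did not overlap. Lyl1 (chr8:87228531-87228590, plus strand), the close relative of Tal1, had 3.89, 3.58 and 3.52 in irradiated spleens and 5.55, 5.48 and 5.26 in unirradiated spleens. All 3 unirradiated arrays agreed to within 0.29, unlike those of Tal1, and the change was -1.76 ± 0.14 (SE; 95% interval -2.09 to -1.44; limma adjusted p = 0.000138; 3.39-fold lower). The difference in change between Tal1 and Lyl1 was -0.11 (exact permutation p = 1, two-sided), and it turned to 0.12 and 0.09 without unirradiated replicate 1 or 2.

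Lmo2 (chr2:103821857-103821916, plus strand), a LIM-only protein that binds no DNA itself, had 2.99, 2.87 and 2.99 in irradiated spleens and 4.73, 4.66 and 4.16 in unirradiated spleens. The groups were well separated, and the change was -1.57 ± 0.16 (SE; limma adjusted p = 0.000368; 2.96-fold lower). Ldb1 (chr19:46107487-46107546, minus strand), a widely expressed scaffold that dimerises and holds the complex and its enhancers together, had 2.83, 2.76 and 2.73 in irradiated spleens and 3.54, 3.39 and 3.38 in unirradiated spleens. It had the smallest change of the 10 members, at -0.67 ± 0.09 (SE; 95% interval -0.88 to -0.45; limma adjusted p = 0.00101; 1.59-fold lower), with groups that did not overlap.

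The change of each other member was set against that of Ldb1, by an exact permutation test on the difference between the 2 genes on each array. With 3 arrays against 3 the smallest p this test can give is 0.1, so none of the 10 pairs compared, Tal1 with Lyl1 included, could pass 0.05. The differences in change from Ldb1 ran from -7.30 for Klf1, -2.73 for Bcl11a and -1.96 for Gfi1b to -0.90 for Lmo2 and Nfe2. Exact p was 0.1 for 8 of the 9 pairs with Ldb1 (0.125 after adjustment over the 10 pairs) and 0.2 for Nfe2 (0.222 after adjustment).

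Klf1 and Nfe2 act with the complex at the red cell genes. Klf1 (chr8:87428881-87428940, plus strand), the zinc finger activator of adult beta-globin and many red cell genes, had -5.66, -6.51 and -6.21 in irradiated spleens and 2.78, 2.19 and 0.55 in unirradiated spleens. In processed signal, before scaling, these were 22.7, 12.3 and 16.0 in irradiated spleens, against 8038, 5248 and 2048 in unirradiated spleens. The irradiated arrays were far below the lowest unirradiated array, and the probe was well above background on 1 of the 3 irradiated arrays and on 3 of the 3 unirradiated arrays. The change was -7.96 ± 0.57 (SE; 95% interval -9.33 to -6.60; limma adjusted p = 0.000113), or 249-fold lower. The irradiated signals were near the background, so the fold is not exact. The change was -5.67 with normexp background correction and -8.61 without unirradiated replicate 3, the ends of its range over all alternatives. Nfe2 (chr15:103078838-103078897, minus strand), the blood-specific subunit of NF-E2, which pairs with a small Maf protein, had 2.63, 2.37 and 2.46 in irradiated spleens and 4.70, 4.30 and 3.16 in unirradiated spleens. Its change was -1.57 ± 0.38 (SE; limma adjusted p = 0.0117; 2.96-fold lower), and the groups did not overlap.

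Gfi1b and Bcl11a are the repressors of the set. Gfi1b (chr2:28464982-28465041, minus strand), a zinc finger repressor needed for red cell and megakaryocyte development, had 0.37, -0.13 and 0.12 in irradiated spleens and 3.53, 3.16 and 1.55 in unirradiated spleens. The change was -2.62 ± 0.50 (SE; limma adjusted p = 0.00441; 6.17-fold lower), and the groups did not overlap. Bcl11a (chr11:24073114-24073173, plus strand), which silences fetal-type globin genes and is also needed in B cells, had -0.39, -0.33 and -0.19 in irradiated spleens and 2.98, 3.12 and 3.19 in unirradiated spleens. The arrays of each group agreed to within 0.21, and the change was -3.40 ± 0.10 (SE; 95% interval -3.64 to -3.16; limma adjusted p = 4.53e-05; 10.6-fold lower). A second probe, for another transcript of Bcl11a, had -0.45, -0.55 and -0.46 in irradiated spleens and 2.36, 2.58 and 2.63 in unirradiated spleens. It gave -3.01 ± 0.10 (limma adjusted p = 5.63e-05; 8.05-fold lower). The remaining probe of Bcl11a was well above background on 1 of 3 irradiated and 2 of 3 unirradiated arrays and was not tested, and fitted without the filter it changed by -0.13 (limma adjusted p = 0.716).

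**Figure D2:**
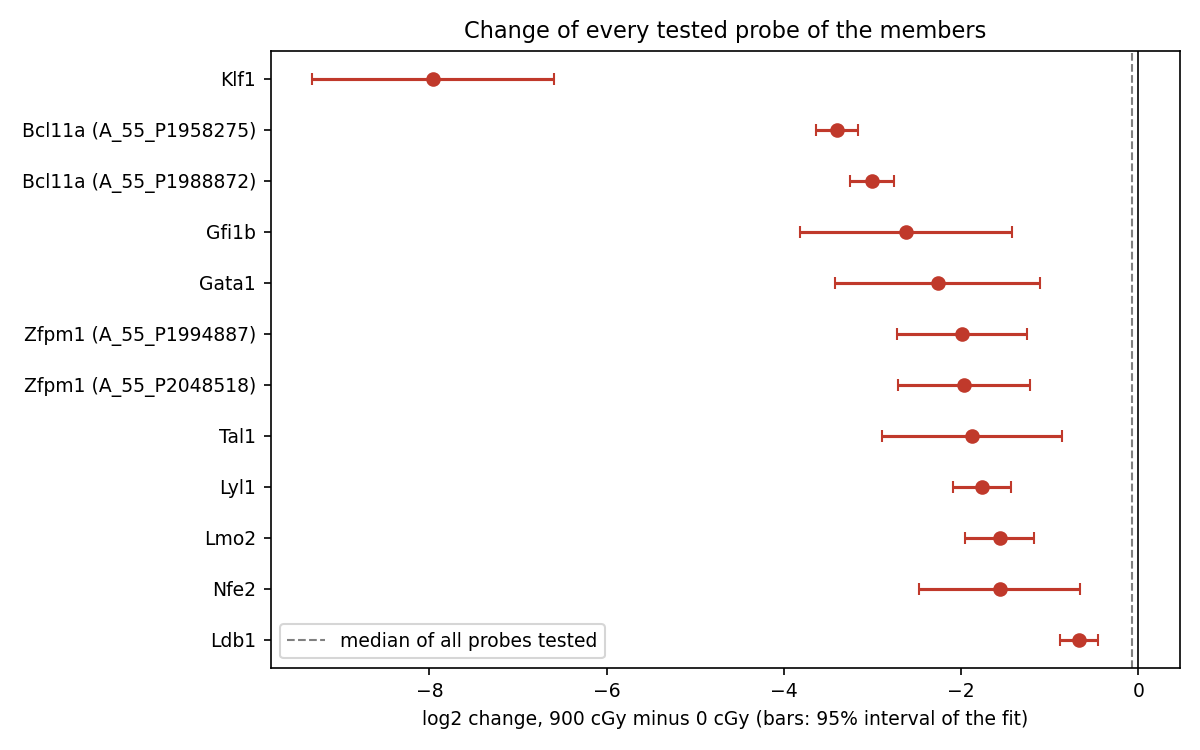
Log2 change, 900 cGy minus 0 cGy (x axis), of each tested probe of the members, with the 95% interval of the fit as bars and the median of all 39683 probes as a dashed line. All 12 intervals lie below 0, from Klf1 at -7.96 to Ldb1 at -0.67.

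Unirradiated replicate 3 stood apart from the other unirradiated arrays. It was below their mean by more than 1 for 6 members, with deviations of -1.94 for Klf1, -1.80 for Gfi1b, -1.74 for Gata1, -1.57 for Tal1, -1.34 for Nfe2 and -1.11 for Zfpm1. For the other 4 members the deviation lay between -0.53 and 0.14. The mean log2 signal of 35 red cell genes that the complex drives deviated by -1.25 on the same array, and that of cell division genes by -1.32, while B cell markers deviated by 0.37. Replicate 3 was still above the highest irradiated array for every member, by between 0.52 for Nfe2 and 6.20 for Klf1. Without it all 10 members were lower, and the fold moved by over 1.5 times for 2 of them, to 9.34-fold lower for Gfi1b and to a change of -8.61 for Klf1, whose irradiated signals were near the background. The change was then -2.84 for Gata1, -2.40 for Tal1 and -3.35 for Bcl11a. The part of this array in the size of the changes was otherwise not tested.

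**Figure D3:**
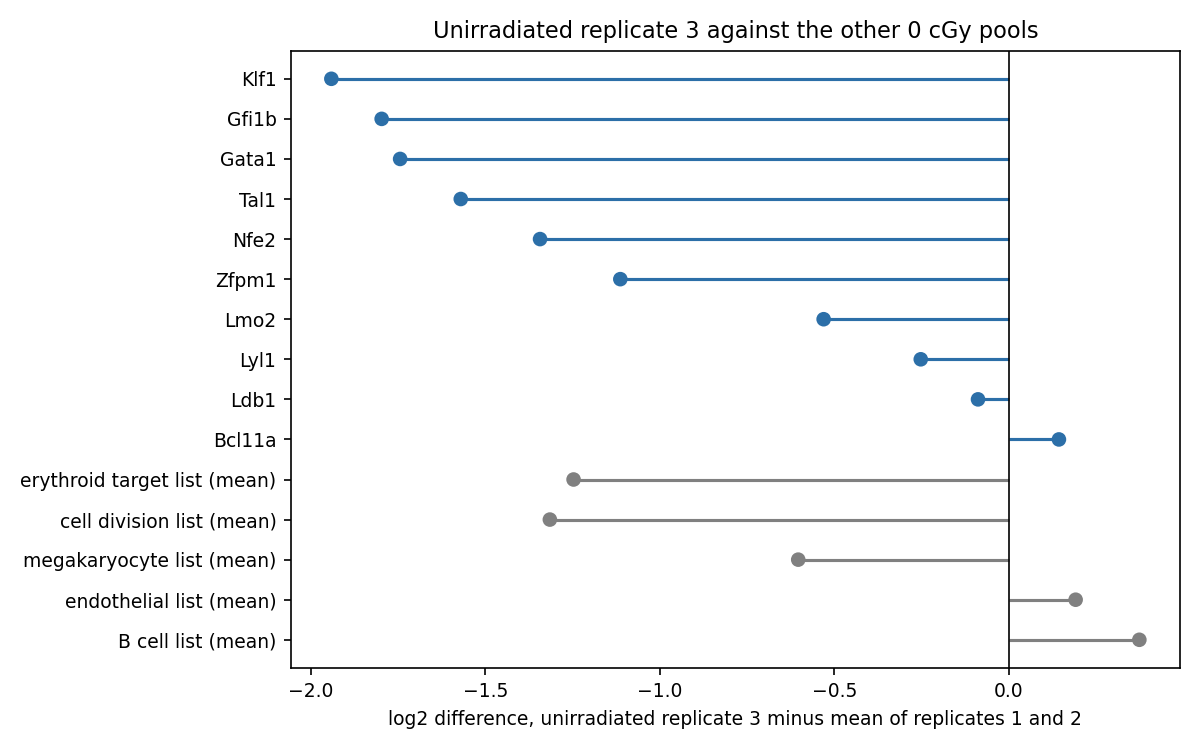
Deviation of unirradiated replicate 3 from the mean of unirradiated replicates 1 and 2 (log2) for each member. It runs from -1.94 for Klf1 to 0.14 for Bcl11a.

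The slide row, which the files give by array position, differed with the group. Row 1 held all 3 unirradiated arrays and irradiated replicate 1, and row 2 held irradiated replicates 2 and 3. With the row as a block 7 members were lower by limma, against 23.3% of all probes, and within row 1 alone, where the irradiated group was 1 array assumed to vary like the unirradiated arrays, 5 were, against 15% of all probes. The changes were equal in these fits, at -7.50 for Klf1, -3.48 for Bcl11a, -2.37 for Gfi1b, -1.97 for Gata1, -1.91 for Zfpm1, -1.85 for Tal1, -1.54 for Lyl1, -1.53 for Lmo2, -1.42 for Nfe2 and -0.61 for Ldb1. All 10 kept their sign. With the row as a block Gata1 (limma adjusted p = 0.0720), Tal1 (0.0636) and Nfe2 (0.0934) missed the threshold, and in row 1 alone Ldb1 (0.0588) and Gfi1b (0.0729) did too.

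Marker genes of the exocrine pancreas, an organ that lies against the spleen, also moved with the group. Of 12 pancreas markers 11 were higher, against 26.4% of all probes, and 1 was not called, with a median change of 7.18. Leaving out 1 array gave 4 to 12 higher, with medians of 4.90 to 9.10: 7, 4 and 6 were higher without irradiated replicate 1, 2 or 3, and the lowest median came without unirradiated replicate 1 and the highest without unirradiated replicate 2. In slide row 1 alone 2 were higher. Their summed scaled signal ranged from 1448 to 1806 in irradiated spleens and from 2.19 to 200 in unirradiated spleens. With the mean of these markers as a covariate, 4 members were lower, Lyl1 at -1.64, Lmo2 at -1.38, Klf1 at -7.02 and Bcl11a at -3.55, against 13.2% of all probes. The other 6 kept their sign, at -1.71 for Gata1 (limma adjusted p = 0.204), -1.48 for Zfpm1 (0.0975), -1.42 for Tal1 (0.225), -0.52 for Ldb1 (0.0525), -0.93 for Nfe2 (0.328) and -1.91 for Gfi1b (0.165). With 6 arrays this covariate follows the group, and its part and that of the group cannot be told apart.

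Most red cell genes known to be driven by the complex were lower. Of 35 tested, 31 were lower, against 31% of all probes, none was higher and 4 were not called, with a median of -3.73. The largest changes were in Rhd and Add2, which no irradiated array had well above background, and in Ahsp, the chaperone of alpha-globin, at -8.70. With irradiated signals raised to the lowest signal well above background on each array, Rhd was 362-fold and Add2 333-fold lower. These bounds hold for the main processing only. Over all alternatives the log2 change ran from -10.47 to -6.54 for Rhd and from -10.03 to -6.15 for Add2. Epor, the erythropoietin receptor, was at -1.08 (limma adjusted p = 0.0847), and without unirradiated replicate 3 it was at -1.65 (0.000298). Spnb1, the spectrin beta chain of red cells, was at 0.33, Hemgn at 0.05 and Hba-a2, an alpha-globin whose probe can share signal with its near-identical copy, at -0.10. The Spnb1 probe was weak in both groups, with processed signals of 163 to 221 in irradiated and 152 to 196 in unirradiated spleens. The summed scaled signal of the list ranged from 852 to 985 in irradiated spleens and from 1685 to 2628 in unirradiated spleens.

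The embryonic globins that BCL11A silences in red cells were also lower where they could be tested. Hbb-y changed by -1.87 (limma adjusted p = 0.00337) and Hbb-bh1 by -0.86 (0.00984), while Hba-x was not tested. The Hbb-y probe was well above background on 2 of 3 irradiated arrays, with processed signals of 19.2, 27.0 and 21.5 in irradiated spleens, against 123, 90.7 and 60.6 in unirradiated spleens. Its change ran from -2.22 to -0.66 over the alternatives, the smallest with normexp, and with the pancreas covariate neither globin passed the threshold. Of 5 progenitor genes that GATA1 shuts off, 4 were lower, against 31% of all probes, led by Myb at -2.68, Myc at -2.16 and Kit at -1.16. Gata2, which GATA1 replaces at many sites as red cells mature, was 2.14-fold higher (limma adjusted p = 0.00017).

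Genes for the proteins that the members bind had smaller median changes. Of 13 DNA-binding partners and adaptors 5 were lower, 3 higher and 5 not called, with a median of -0.28. Among all probes tested 31% were lower and 26.4% higher, near the shares of these partners and adaptors. Tcf3, the E protein partner of TAL1 and LYL1, was lower, at -1.01, while Ldb2, a relative of Ldb1, was higher, at 1.30. The counts rested on single arrays: leaving out 1 array gave 3 to 7 lower (3 without irradiated replicate 2) and 1 to 3 higher (1 without irradiated replicate 2 or 3 or unirradiated replicate 2 or 3), and slide row 1 alone gave 1 lower and 1 higher. Tal2 was at 1.58, but its probe was well above background on only 1 of the 3 unirradiated arrays, and it missed the threshold in 7 of 17 alternatives, with changes of 0.32 to 3.02 (limma adjusted p up to 0.230). Ssbp4, at 0.28, missed it in 15 of 18 alternatives (limma adjusted p up to 0.901). Of 14 corepressors and remodellers 10 were lower, with a median of -0.42, among them Mta2 of NuRD at -0.86 and Rbbp4 at -0.68, while Ctbp2 was higher, at 0.96. In slide row 1 alone 1 of the 14 was lower, and over all alternatives 1 to 13 were. Rbbp4 missed the threshold in 2 of 18 alternatives, with changes of -0.93 to -0.43 (limma adjusted p up to 0.228), and was at -0.73 in row 1 alone.

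Relatives of the members in other lineages were mixed. Of 8 partners and relatives of NF-E2, 3 were higher and 2 lower, with a median of 0.38. For these and the family relatives below, the shares of all probes were 31% lower and 26.4% higher. Bach2, a repressor active in B cells, was the lowest of these at -3.49, Mafk, a small Maf partner of NFE2, was at -0.67, and Nfe2l1 was higher at 0.86. Mafk missed the threshold in 3 of 18 alternatives, with changes of -0.92 to -0.33 (limma adjusted p up to 0.359). With spike-in scaling 1 of these 8 was higher, and in slide row 1 alone 1 was higher and 1 lower. Of 14 family relatives 10 were lower and 3 higher, with a median of -0.66, and in slide row 1 alone 5 were lower and 2 higher. Sox6, a partner of BCL11A in red cells, was 13.3-fold lower by the bound of the main processing. Over all alternatives its log2 change ran from -4.53 to -1.86. Bcl11b, the T cell relative of Bcl11a, was at -2.19. Zfpm2, the relative of Zfpm1, was higher at 1.60, as were Gata2 and Klf4. Klf4 was at 0.43 but missed the threshold in 4 of 18 alternatives, with changes of 0.17 to 0.47 (limma adjusted p up to 0.373, with spike-in scaling).

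Several members are also made in cells other than red cell precursors, and marker lists of those cells were read beside them. The shares of all probes to set beside these counts were 31% lower and 26.4% higher. All 10 B cell markers were lower, with a median of -2.82, led by Fcer2a at -4.39, Pax5 at -3.25 and Ebf1 at -3.15, and their summed scaled signal ranged from 50.7 to 56.4 in irradiated spleens and from 295 to 382 in unirradiated spleens. Of 12 megakaryocyte and platelet markers, 2 were higher, none lower and 10 not called, with a median of 0.22. Clec1b was at 1.01 and Itga2b at 0.47, but Itga2b missed the threshold in 9 of 18 alternatives, among them those without irradiated replicate 1, 2 or 3 or unirradiated replicate 2. Their summed signal ranged from 252 to 286 in irradiated and from 173 to 271 in unirradiated spleens. Of 10 endothelial markers 9 were higher, with a median of 1.28, led by Robo4 at 1.68, Flt1 at 1.64 and Kdr at 1.53.
Of 8 mast cell and basophil markers tested 3 were higher and 2 lower, and these included Mcpt8 at -3.34, Prss34 at -2.61 and Hdc at 1.54, while Ms4a2 and Tpsab1 were not tested. Of 6 eosinophil markers 3 were lower and 2 higher, led by Epx at -3.17, Ccr3 at 1.94 and Il5ra at -1.74. Of 6 plasmacytoid dendritic cell markers 2 were lower and 1 higher, with Bst2 at 2.34, Spib at -1.98 and Ccr9 at -1.86. Of 8 stem and progenitor markers 5 were higher and 3 lower. Hlf was at 1.65, Procr at 1.55 and Cd34 at 1.33, and Kit, at -1.16, was among the lower. Of 11 cell division genes tested 11 were lower, with a median of -2.71, led by Ccna2 at -3.49, Mki67 at -3.32 and Top2a at -2.90. Gata2 stands in 3 of the lists read here, as progenitor gene, family relative and mast cell marker, and Kit in 2. The part of these cell types in the members' changes was not tested.

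**Figure D4:**
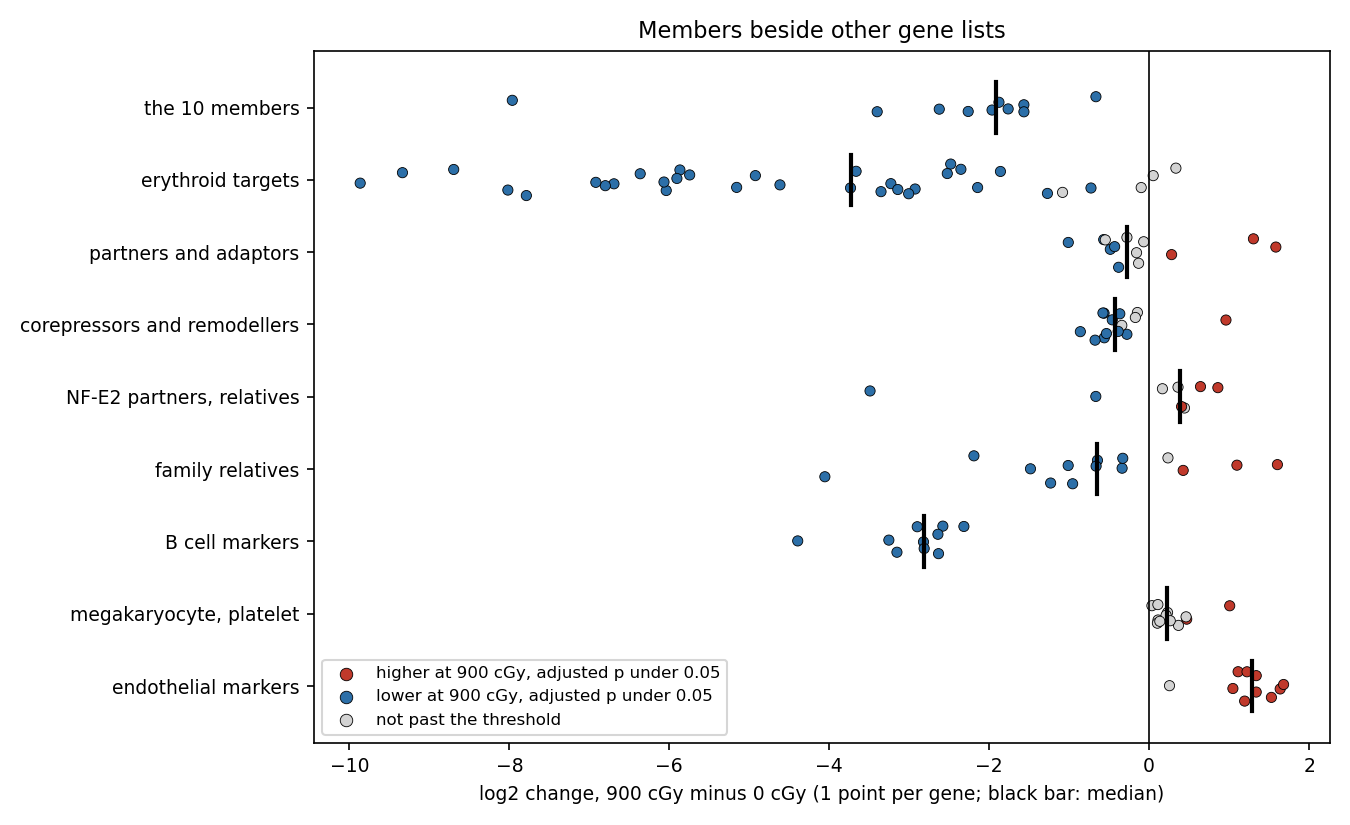
Log2 change, 900 cGy minus 0 cGy (x axis), of the 10 members and of the tested genes of 8 lists (1 point per gene, coloured by limma call; black bars: medians). The list of red cell genes driven by the complex (erythroid targets) has its median at -3.73 and the B cell list at -2.82, below the median of all probes at -0.07, and the endothelial list has its median at 1.28.

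The genes whose 6 values, each centred on its own mean, were nearest to those of a member were found among 14386 genes, by the root mean square difference over the 6 arrays. Klf1 was nearest to the red cell surface gene Kel (0.24), then to Slc25a21 (0.41) and Cldn13 (0.57). Bcl11a was nearest to Bach2 (0.08), B3gnt5 (0.15) and the B cell factor Ebf1 (0.15). Gata1 was near to Pdzk1ip1 (0.10) and Aurka (0.16), and Gfi1b to Depdc1b (0.13) and Mybl2 (0.14).
Zfpm1 was near to Ncaph (0.04) and Foxm1 (0.05), and Tal1 to the water channel gene Aqp1 (0.07), Rad54l (0.08) and Pnp2 (0.10). Lyl1 was nearest to Dennd4a (0.08), Pold1 (0.10) and Cdca7l (0.11), and Lmo2 to Hells (0.03), Dclk2 (0.05) and Dennd4a (0.05). Nfe2 was nearest to Ankrd9 (0.07), Minpp1 (0.07) and Atad5 (0.09), and Ldb1 to Rbbp7 (0.02), Eif3k (0.03) and Usp6nl (0.03).

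Lyl1 and Klf1 lie on chromosome 8, their probes 200350 bases apart on mm9. In the window from 87208531 to 87488881, 27 other probes were present and 26 were tested, of which 16 were lower, 5 higher and 5 not called. Among all probes tested 31% were lower and 26.4% higher. Several genes in the window had more than 1 probe. Between the probes of Lyl1 and Klf1, Syce2 on the plus strand was at -1.74 and Gcdh on the minus strand at 0.36. Dnase2a, whose probe is the nearest to that of Klf1, was at 0.20 (limma adjusted p = 0.114). Nfix, whose probe lies beside that of Lyl1 on the other strand, was higher, at 0.97.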

How the data were processed

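Spleen RNA was read on Agilent one-colour (Cy3) 8x60K arrays with Agilent Feature Extraction 10.5.1.1, per the submitters' processing notes. The deposited intensity values were, per the file headers, a processed signal (detrended after background subtraction, with surrogate values for weak spots), a mean signal and a local background. Precision is limited by the 6 arrays. The log2 table that the authors deposited matched the scanner signals after 75th percentile scaling and subtraction of a median per probe (r of 0.99996 to 0.99998 across probes, slopes near 1.00, same direction; column medians -0.025, 0.018 and -0.008 for irradiated and 0.047, -0.006 and -0.047 for unirradiated replicates 1 to 3).

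Each log2 processed signal was reduced by that of the array's 75th percentile (1114 to 1182 irradiated, 1152 to 1403 unirradiated) over 59305 non-control spots. Outlier spots (91 to 146 per array) were left out, spots of 1 probe were averaged, and no spot was saturated. Between 39034 and 41266 probes were well above background per array. limma 3.58.1 (lmFit, eBayes, two-sided) in R 4.3.3 was run per probe, with an adjusted p threshold of 0.05, and the fit was tested on simulated data. The report named all 10 members with every probe, and up to 3 genes per list with the largest change. List members called against the majority were named in most lists, but not all of them in every list. Uncalled red cell genes, and the neighbours of Lyl1 and Klf1, were chosen after their values were seen. The 3 genes nearest to each member were also named, a few of which are not reported here. Each gene was represented by its brightest probe. A bound set the bright group's mean against the higher of the dim signal and the lowest signal well above background per array. Members and lists were chosen with earlier results of these data known. Promoters are from RefSeq, build GRCm38.p6; the array files gave probe positions on mm9.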

Additional observations from a re-analysis of the deposited data

How the results depend on the processing

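All 10 members were lower under normexp with or without quantile normalization, median and spike-in scaling, no filter, 1 probe per gene, the authors' value table and the leaving-out of each array (10 to 10 members; probes lower 10107 to 13006, higher 8932 to 10808). The filter for all 6 arrays left Klf1 untested, and 9 members were lower. No member changed sign, and none was higher, under any alternative run. Spike-in scaling moved the median of all probes to -0.33, from -0.07, and the split to 16235 lower and 7029 higher, against 12319 lower and 10488 higher.

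In slide row 1 alone 5968 probes were lower and 6043 higher, with 5 members lower. With the pancreas markers as a covariate 5219 were lower and 6348 higher, with 4 members lower. With the replicate block, which changed no call of a member, 10 members were lower, and 11297 probes lower and 9935 higher. Between the groups, same-numbered arrays correlated at 0.943, 0.950 and 0.960, and differently numbered arrays at 0.942 to 0.959. The labels give these samples a shared number and nothing more. Hemgn, never called, was at -0.20 with spike-in scaling, -0.044 with the slide row as a block and in row 1 alone, -0.21 with the pancreas covariate and -0.094 without unirradiated replicate 3 (-0.094 to 0.23 over the arrays left out). Hba-a2 was at 0.0089 with quantile normalization, and Dnase2a at -0.056 with spike-in scaling. Tal1 minus Lyl1 was 0.12 and 0.09 without unirradiated replicates 1 and 2 (-0.55 to 0.12 over the arrays left out). The cause was not tested. Weak signal limits the size of the Klf1 change.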
